A study of Capsicum annuum and Solanum lycopersicum with 125 samples.

Results

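ERF114 was followed as a pair of orthologs, SlERF114 (Solyc03g118190) in tomato and CaERF114 (CA03g31320) in pepper. They are 2 of the 64930 genes in the count matrices of both species, 1 of 34688 in tomato and 1 of 30242 in pepper, and each was found by its identifier. The study compared heterografts, which join tomato and pepper and are incompatible, with self-grafts and ungrafted stems of the same species. Heterografted tissue was a tomato scion on a pepper stock or a pepper scion on a tomato stock, and scion and stock of each were sequenced apart. Self-grafts were tomato on tomato and pepper on pepper. Ungrafted stems were of matching age. Plants were tomato M82, grafted at 14 days of age, and pepper California Wonder, grafted at 21 days. Grafts healed for 3 days in the dark, and 0.5 cm of scion or stock was taken on days 7, 14 or 21 after grafting (DAG), with 3 to 5 libraries in each of the 30 groups. No transgene or mutant allele enters any of these groups.

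ERF114 belongs to the AP2/ERF transcription factors, named for a DNA-binding domain that they share. Many members of the family respond to ethylene, jasmonate or wounding. In Arabidopsis, ERF114 and close relatives are induced by wounding and have been tied to new xylem and to lateral root growth, and a graft is a wound that must rebuild its vascular connection. In its main text the study drew attention to this orthogroup because it was higher in heterografts than in ungrafted stems of both species. Levels against ungrafted stems are therefore given as a description, with no test for heterografts. The heterograft libraries compared with self-grafts below are the ones that the choice rested on, so that comparison is not independent of the choice. The study's methods also describe an orthogroup overlap of genes from a likelihood ratio test that included self-grafts. The choice may therefore rest in part on heterograft against self-graft itself.

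Values are raw counts of 3' reads, and counts-per-million values (CPM), in which a count is divided by its library's total. Totals ran from 900 to 3136541 counts in the 61 tomato libraries and from 18243 to 617920 counts in the 64 pepper libraries. The 3 tomato heterografted stock libraries of 14 DAG held 3321 counts together and had 0 counts of SlERF114, where 0 counts allow up to 903 CPM, so no value is read from them. The 3 tomato heterografted stock libraries of 21 DAG held 32731 to 267066 counts, and 3 pepper libraries held under 100000 counts. Those in pepper were a self-grafted stock of 14 DAG (18243 counts) and ungrafted stems of 7 DAG (60148 and 55202 counts). Each had 0 counts of CaERF114, which says little at such totals. These are bulk samples, in which fewer cells of a type and less RNA per cell cannot be told apart. No table used here names marker genes, so the tissue labels were not checked against markers. Only heterografted pieces adjoined tissue of the other species. The study cites earlier work on tomato and pepper reads that map to the wrong genome. Whether reads of the graft partner's ERF114 entered the heterografted libraries was not tested.

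SlERF114 was highest in heterografted tissue, intermediate in self-grafts and near 0 in ungrafted stems. At 7 DAG the 5 heterografted scions had 84, 133, 105, 93 and 142 counts of SlERF114, against 38, 30, 13 and 38 counts in self-grafted scions. The 4 heterografted stocks of 7 DAG had 104, 216, 78 and 141 counts, against 19, 20 and 42 counts in self-grafted stocks. Every heterografted library of 7 DAG exceeded every self-grafted one of its position, and the ungrafted stems of 7 DAG had 6, 0, 0 and 0 counts. The share of all genes whose groups separate in this way was not tested. Such separations are given as a description, here and below.

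The later days kept the order in the scion. At 14 DAG heterografted scions had 61, 145, 78 and 148 counts of SlERF114, against 12, 30, 48 and 22 counts in self-grafted scions, with no overlap. At 21 DAG heterografted scions had 75, 62, 81 and 40 counts, against 33, 22, 27 and 32 counts in self-grafted scions. In CPM, which corrects for library size, the ranges of 21 DAG overlapped, because the lowest heterografted scion had 18.6 CPM and the highest self-grafted scion had 18.8 CPM. Self-grafted stocks had 30, 18, 22, 26 and 21 counts at 14 DAG and 34, 28, 10, 15 and 20 counts at 21 DAG. Heterografted stocks of 21 DAG had 18, 0 and 5 counts, or 79.5, 0 and 18.7 CPM, and straddled the self-grafted stocks, which lay between 6.33 and 21.7 CPM. Ungrafted stems had 0, 2, 3, 0 and 0 counts at 14 DAG and 3, 6, 3 and 0 counts at 21 DAG.

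As means, SlERF114 reached 53.1 ± 11.7 CPM (SD, n = 5) in heterografted scions at 7 DAG, 37.3 ± 12.4 CPM (n = 4) at 14 DAG and 36.9 ± 16.5 CPM (n = 4) at 21 DAG. Heterografted stocks averaged 71.1 ± 19.4 CPM (n = 4) at 7 DAG. The self-grafted groups averaged between 11.4 and 17.3 CPM, and the ungrafted stems between 0.455 and 1.58 CPM. In the order of the 14 group means, the ranges of neighbouring groups overlapped at every step but 1, the step between the lowest self-graft and the highest ungrafted group.

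**Figure D1:**
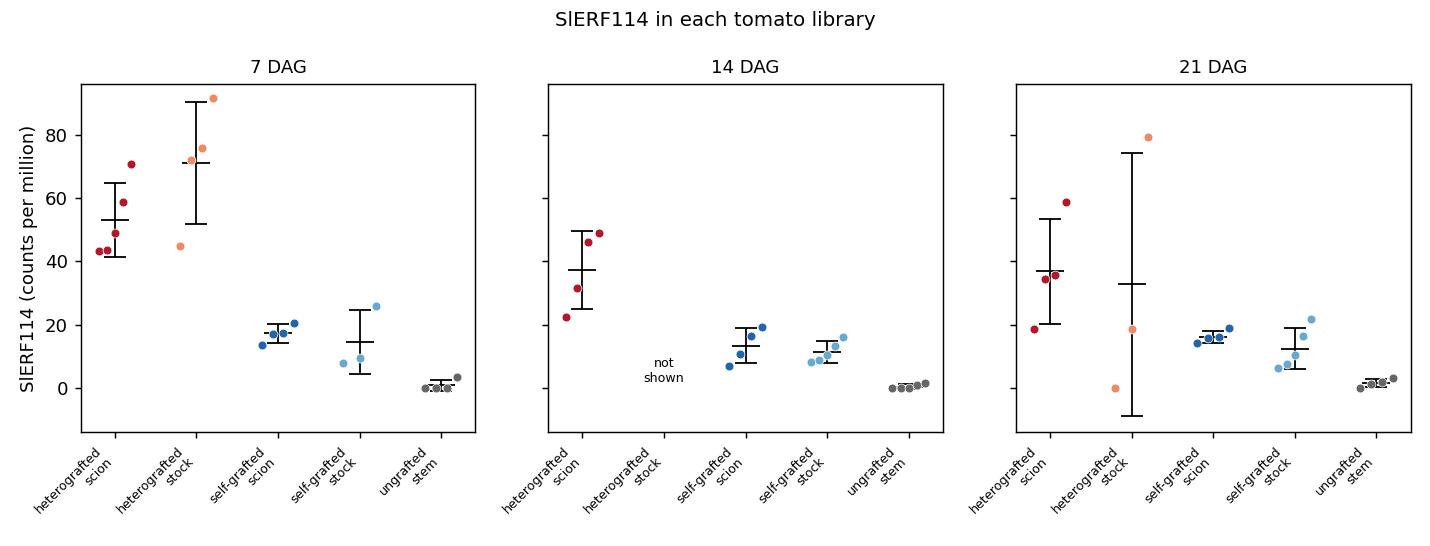
SlERF114 in each tomato library (points, CPM) by group and days after grafting, with the group mean and SD (bars). Heterografted libraries lie above self-grafted libraries at 7 DAG and in the scion at 14 DAG, and ungrafted stems reach at most 3.39 CPM. The heterografted stocks of 14 DAG, which held 3321 counts together, are not shown.

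CaERF114 was found in heterografts and only sparsely elsewhere. All 25 heterografted pepper libraries held at least 1 count of it, against 9 of the 27 self-grafted libraries and 0 of the 12 ungrafted stems. The 0 counts in ungrafted stems, out of 3311442 counts in all, allow a level of up to 0.906 CPM, which covers counting error only. Its average over all libraries was 13.1 counts, with 46.9% zeros, so it passed the filter on low counts through the heterografted libraries.

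At 7 DAG heterografted scions had 15, 61, 70 and 24 counts of CaERF114, against 0, 6, 5, 6 and 12 counts in self-grafted scions. Heterografted stocks had 12, 48 and 23 counts, against 0, 0 and 5 counts in self-grafted stocks. The groups did not overlap at either position. At 14 DAG heterografted scions had 12, 18, 18 and 17 counts, and all 5 self-grafted scions had 0. Heterografted stocks of 14 DAG had 16, 38, 5 and 30 counts, against 0, 0, 0 and 2 counts in self-grafted stocks. Again no self-grafted library reached the lowest heterografted one of its position in counts. A self-grafted stock with 0 held only 18243 counts in all, too few to rank it against the lowest heterografted stock (12.6 CPM). At 21 DAG heterografted scions had 72, 91, 11, 55 and 20 counts, against 0, 0, 8, 0 and 5 counts in self-grafted scions. Heterografted stocks of 21 DAG had 54, 6, 22, 14 and 37 counts, against 0, 0, 0, 3 and 0 counts in self-grafted stocks. The heterografted pepper libraries varied widely among themselves, but in CPM the groups of 21 DAG stayed apart.

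Means of CaERF114 in heterografted scions were 93.7 ± 38.5 CPM (SD, n = 4) at 7 DAG, 39.5 ± 6.44 CPM (n = 4) at 14 DAG and 115 ± 68.0 CPM (n = 5) at 21 DAG. In heterografted stocks they were 112 ± 89.1 CPM (n = 3), 46.4 ± 31.1 CPM (n = 4) and 60.4 ± 44.7 CPM (n = 5) at the same days. Self-grafted scions averaged 16.1 ± 13.6 CPM (n = 5) at 7 DAG, 0 CPM at 14 DAG and 6.53 ± 9.87 CPM (n = 5) at 21 DAG, and the self-grafted stocks between 1.15 and 3.48 CPM. In the order of the 15 group means every neighbouring pair of groups overlapped in range.

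**Figure D2:**
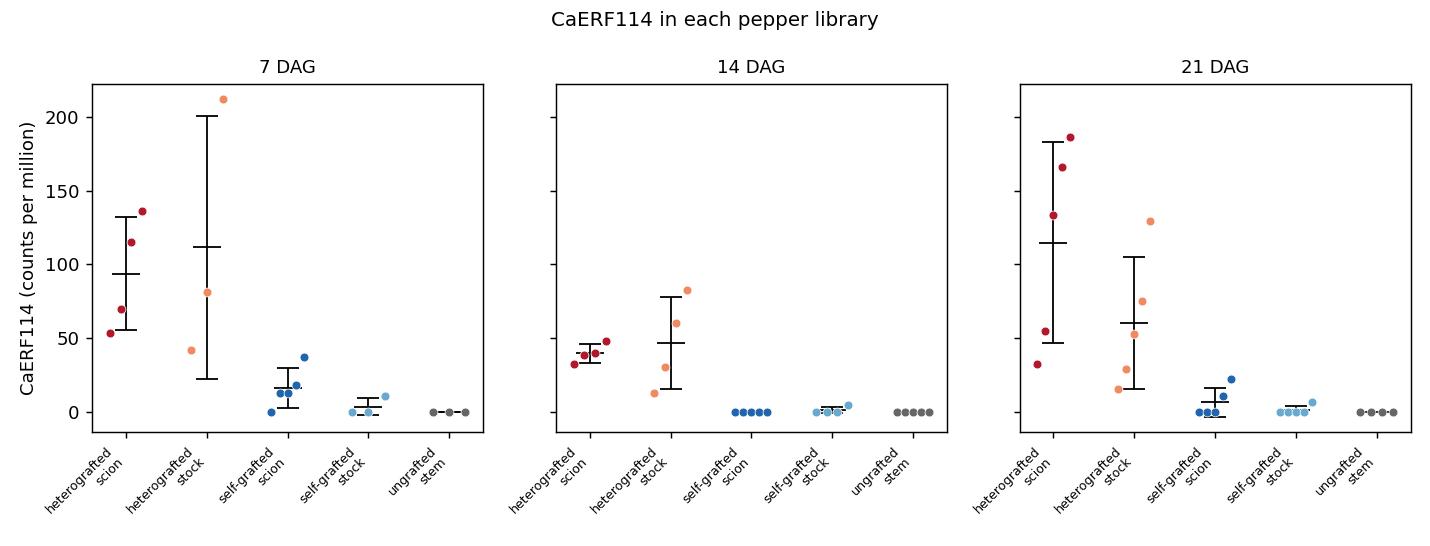
CaERF114 in each pepper library (points, CPM) by group and days after grafting, with the group mean and SD (bars). Heterografted libraries range up to 212 CPM, self-grafted libraries reach at most 37.3 CPM, and all 12 ungrafted stems are at 0.

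The comparison of heterograft with self-graft asks whether ERF114 differs with the graft partner and not with grafting alone. It was fitted with edgeR's quasi-likelihood test over all genes of a species, with Benjamini-Hochberg adjustment. To be called, a gene needed an adjusted p under 0.05 together with a log2 fold change beyond 1.5 in either direction. The log2 fold change was above 0 in all 5 tomato and all 6 pepper contrasts. SlERF114 was called higher in 1 of 5, and CaERF114 in 4 of 6. CaERF114 passed the filter on low counts through its heterografted libraries, and with no filter it was again called in 4 of 6.

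SlERF114 rose in heterografted stocks at 7 DAG, with a log2 fold change of 2.25 (SE 0.55, adjusted p = 0.00658, edgeR), where 2.48% of all tomato genes were called higher. Without the self-grafted stock library with 42 counts, the highest of its group, the value was 2.97. In scions it was 1.58 (SE 0.47, adjusted p = 0.0564, edgeR) at 7 DAG, 1.49 (SE 0.43, adjusted p = 0.0185) at 14 DAG and 1.03 (SE 0.54, adjusted p = 0.239) at 21 DAG. None of these scion values was called, the value of 14 DAG because it fell just short of the fold threshold, and 1.07%, 2.05% and 3.53% of tomato genes were called higher at 7, 14 and 21 DAG. The scion values sat near the thresholds, and leaving out 1 library at a time made the value of 7 DAG called in 5 of 20 fits. At 14 DAG it was called without the self-grafted scion with 30 counts (1.62, adjusted p = 0.0295, edgeR) or with 48 counts (1.74, adjusted p = 0.0192), and without the heterografted scion with 61 counts (1.66, adjusted p = 0.0156) or with 78 counts (1.56, adjusted p = 0.0318). The exact permutation test of log2(CPM + 1), 2-sided, gave p = 0.00794 for the scion of 7 DAG and p = 0.0286 for the scion of 14 DAG and the stock of 7 DAG, each the smallest p that the number of libraries allows.

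In tomato heterografted stocks of 21 DAG the log2 fold change of SlERF114 was 0.67 (SE 0.64, adjusted p = 0.36, edgeR). There the median over all genes was -3.67, and 4.39% of genes were called higher and 55.4% lower. The value was -0.68 without the library with 18 counts, and 1.80 (adjusted p = 0.0201, edgeR), called higher, when libraries were scaled by their totals alone. The direction and the call of SlERF114 in stocks of that day thus depended on 1 library and on the scaling.

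CaERF114 rose in 4 contrasts. In scions of 14 DAG it was called higher in heterografts (adjusted p = 0.00294, edgeR). There the pooled CPM of heterografts was 29.1-fold that of 3 counts over the self-grafted group, which had 0. In scions of 21 DAG the log2 fold change was 4.41 (SE 1.08, adjusted p = 0.00785, edgeR), and 5.53 without the self-grafted library with 8 counts. In stocks of 14 DAG the pooled ratio of CPM was 34.2, with a 95% counting interval of 9.18 to 286 (adjusted p = 0.0127, edgeR), since self-grafts held 2 counts. In stocks of 21 DAG it was 46.6, with an interval of 15.6 to 229 (adjusted p = 0.00622, edgeR), since self-grafts held 3 counts. These intervals and the 29.1-fold ratio leave out the spread between libraries, which the edgeR test takes in. The share of all pepper genes called higher was 2.95% and 4.75% in the scion at 14 and 21 DAG, and 4.35% and 3.22% in the stock. The fitted log2 fold change in the stock of 21 DAG was 4.91 without the heterografted library with 54 counts. That library had counts for 4459 genes, where the others of its group had counts for 10025 to 10611. Without the single self-grafted library that held counts it was 7.24 in the stock of 14 DAG and 7.86 in the stock of 21 DAG, where the other self-grafts are at 0 and the fitted size depends on the prior count. The call in the stock of 14 DAG was lost with only the 2 compared groups in the fit (log2 fold change 4.75, adjusted p = 0.0805, edgeR).

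At 7 DAG CaERF114 was not called in pepper, with a log2 fold change of 2.47 (SE 0.93, adjusted p = 0.358, edgeR) in scions and 4.76 (SE 1.32, adjusted p = 0.1) in stocks. Few pepper genes were called there, 0.133% higher in scions and 0.355% in stocks. The exact permutation test gave p = 0.0159 for scions, while with 3 libraries against 3 the stocks could not go below p = 0.1, the value they gave. CaERF114 was 1 of 24 pepper genes, 0.533% of those tested, called higher in at least 4 of the 6 contrasts, and no pepper gene was called in 5. That share is a description, since CaERF114 entered the tested genes through its heterografted libraries. In tomato, 1309 genes (10.8%) were called higher in at least 1 of the 5 contrasts, as SlERF114 was.

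**Figure D3:**
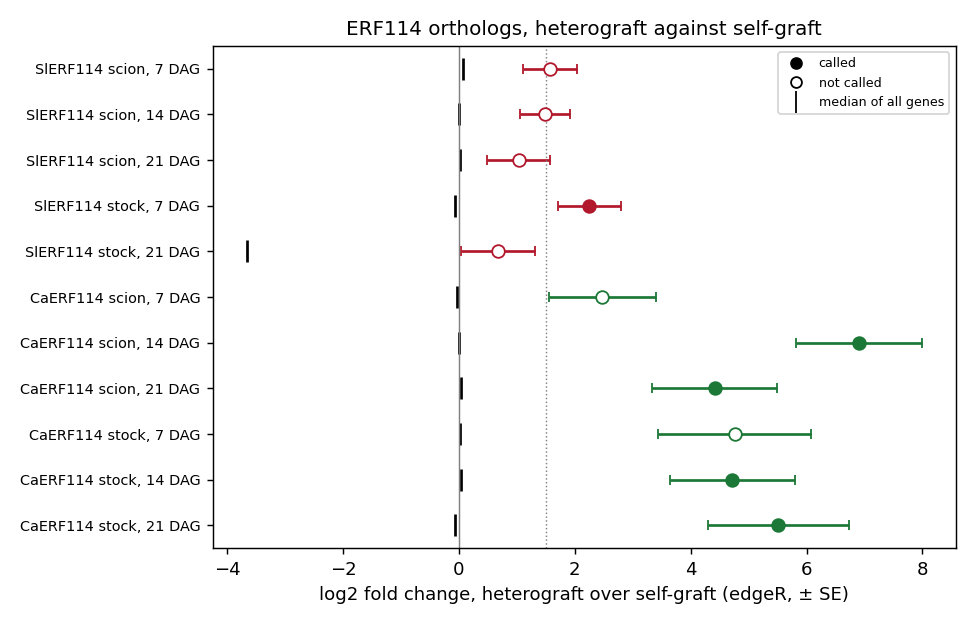
Log2 fold change of ERF114, heterograft over self-graft, with its SE, by species, position and days after grafting. Filled points were called (adjusted p under 0.05 and log2 fold change over 1.5, dotted line), open points were not, and ticks mark the median of all genes, which was -3.67 in the tomato stock of 21 DAG. Of the pepper points, the scion of 14 DAG has self-grafts all at 0 counts, so its fitted position depends on the prior count.

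Averaging the difference over days, an analysis added after the values were seen, gave log2 fold changes of 1.37 (SE 0.29, adjusted p = 0.000222, edgeR) in tomato scions and 1.57 (SE 0.41, adjusted p = 0.00101) in tomato stocks of 7 and 21 DAG. In these averages 3.79% and 2.19% of tomato genes were called higher. In pepper it gave 4.54 (SE 0.66, adjusted p = 1.34e-06, edgeR) in scions and 4.98 (SE 0.77, adjusted p = 3.85e-06) in stocks, where 3.64% and 5.75% of genes were called higher. The pepper stock average was 5.76 to 6.24 without the self-grafted stock library of any 1 day that held counts. The tomato scion value stayed under the fold threshold, and the tomato stock value was 0.84 (adjusted p = 0.158, edgeR) without the heterografted stock library of 21 DAG with 18 counts. These fits use the same libraries as the contrasts by day.

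Self-grafts against ungrafted stems show what grafting within a species did to ERF114. In tomato the self-grafted libraries exceeded every ungrafted stem of their day in all 6 contrasts, a separation whose share among all genes was not tested. SlERF114 was called higher in 4 of the 6. The log2 fold change was 3.90 (SE 0.67, adjusted p = 0.00425, edgeR) in scions and 3.62 (SE 0.70, adjusted p = 0.0124) in stocks at 7 DAG, where 1.67% and 1.13% of genes were called higher. At 14 DAG it was 4.48 (SE 0.59, adjusted p = 0.000189) in scions and 4.27 (SE 0.58, adjusted p = 0.000659) in stocks, where 2.53% and 1.31% of genes were called higher. At 21 DAG it was 3.19 (SE 0.67, adjusted p = 0.0697) in scions and 2.83 (SE 0.65, adjusted p = 0.128) in stocks, not called, in a day when 0.14% and 0.0657% of genes were called higher. Both calls of 7 DAG were lost with only the 2 compared groups in the fit (adjusted p = 0.169 in scions and 0.199 in stocks, edgeR). The call in the stock of 7 DAG was also lost without the self-grafted stock library with 42 counts (2.91, adjusted p = 0.0794, edgeR), and its exact permutation test gave p = 0.0571. Without the ungrafted stem of 14 DAG with 3 counts the values of that day were 5.35 in scions and 5.14 in stocks. Without the ungrafted stem of 7 DAG with 6 counts they were 8.00 and 7.71, with the other ungrafted stems of that day at 0, so that the fitted size depends on the prior count.

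In pepper no self-graft against ungrafted contrast of CaERF114 was called (edgeR). The share of pepper genes called higher was 0.976%, 0.488% and 0.732% in scions and 0.399%, 0.2% and 0.976% in stocks at 7, 14 and 21 DAG. CaERF114 reached an unadjusted p under 0.05 in 2 of these 6 contrasts, the scions of 7 and 21 DAG. Self-grafted scions of 7 DAG held 29 counts in all and those of 21 DAG held 13, against 0 in ungrafted stems. Their pooled CPM was 2.43-fold and 2.30-fold that of 3 counts over the ungrafted stems. Neither ratio takes in the spread between libraries, and the exact permutation test gave p = 0.107 and p = 0.444. Self-grafted stocks held 5, 2 and 3 counts at 7, 14 and 21 DAG. The self-grafted and ungrafted ranges overlapped at 0 in every one of these contrasts.

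As a description, the pooled CPM of SlERF114 in heterografts over that in ungrafted stems was 48.7 in scions (95% counting interval 22.2 to 133) and 67.6 in stocks (30.9 to 185) at 7 DAG, and 76.4 in scions at 14 DAG (32.5 to 236). The intervals are wide because the ungrafted stems held 6 counts at 7 DAG, all in 1 library, and 5 counts at 14 DAG, in 2 libraries. They cover counting error only, not the spread between libraries. At 21 DAG, with 12 counts in ungrafted stems, the ratio was 20.7 in scions (11.7 to 40.6). The ungrafted stems had 0 counts of CaERF114, so its pooled CPM in heterografts was set against 3 counts over the ungrafted stems of the day. It was 16.6-fold, 20.9-fold and 48.4-fold that level in scions at 7, 14 and 21 DAG. In stocks it was 16.9-fold, 25.4-fold and 24.6-fold that level, and none of these ratios takes in the spread between libraries.

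Scion and stock did not separate. None of 5 tomato and 6 pepper contrasts of scion with stock was called (adjusted p from 0.339 to 1 in tomato and from 0.596 to 1 in pepper, edgeR), and none reached an unadjusted p under 0.05. At least 1 of these contrasts called 66.2% of the tomato genes and 17.9% of the pepper genes, in either direction. Most of the tomato genes came from heterografts of 21 DAG, with 6911 called higher and 423 lower, where the stock libraries were small. The tomato contrasts among self-grafts called 0 genes each, so there the lack of a call is not particular to SlERF114. Those among pepper self-grafts called 0 genes at 14 and 21 DAG, and 3 higher and 1 lower at 7 DAG. The lack of a call there is not particular to CaERF114 either. The difference between the graft effects of scion and stock, and of later days and 7 DAG, was tested 12 times. None of these had an adjusted p under 0.05 (0.125 to 1, edgeR), where 68.9% of tomato and 7.68% of pepper genes were called in at least 1, and 1 had an unadjusted p under 0.05, the pepper scion at 14 against 7 DAG. In tomato the differences that involve heterografted stocks of 21 DAG called the most genes. They called 6304 genes higher and 323 lower for scion against stock, and 744 higher and 5917 lower for 21 against 7 DAG. A p that misses the threshold does not show equal effects.

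Over days, SlERF114 was called lower in heterografted stocks at 21 than at 7 DAG, with a log2 fold change of -1.52 (SE 0.62, adjusted p = 0.0279, edgeR). In that contrast the median of all genes was -3.34 and 53.3% of genes were called lower. The call was lost when any of 3 libraries was left out, at -1.16 (adjusted p = 0.111, edgeR) without the library of 21 DAG that totals 32731 counts, -1.21 (adjusted p = 0.129) without that of 21 DAG with 5 counts of SlERF114 and -1.39 (adjusted p = 0.0566) without that of 7 DAG with 216. It was also lost with scaling by library totals alone (-0.71, adjusted p = 0.317, edgeR). The value was -2.97 without the library of 21 DAG with 18 counts of SlERF114. CaERF114 was called lower in self-grafted scions at 14 than at 7 DAG (adjusted p = 0.0170, edgeR), where 1.02% of genes were called lower. All 5 libraries of 14 DAG had 0 counts, and the pooled CPM of 7 DAG was 11.2-fold that of 3 counts over them. That call was lost without the library of 7 DAG with 12 counts (adjusted p = 0.0586, edgeR). No other change over days was called, of 9 contrasts in tomato and 10 in pepper, where 72.9% and 18.4% of genes were called in at least 1. The 2 of these among ungrafted pepper stems compare groups that are at 0. In tomato the heterografted stocks at 21 against 7 DAG called the most genes, 699 higher and 6488 lower.

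The genes next to ERF114 in identifier order were called higher in no heterograft over self-graft contrast. Solyc03g118200 had 7777 counts over all tomato libraries, and its log2 fold change in that comparison was 0.32 and -1.21 in scions at 7 and 14 DAG. It was called lower in stocks of 21 DAG (-2.03, adjusted p = 0.00307, edgeR), the contrast whose median over all genes was -3.67. Solyc03g118180 had 50 counts and did not pass the filter. In pepper CA03g31310 passed the filter and was called in no contrast, with its largest log2 fold change in stocks of 7 DAG (6.18, adjusted p = 0.361, edgeR), and CA03g31330, with 65 counts, did not pass.

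By Pearson correlation of mean log2 CPM over 13 tomato groups, the genes most like SlERF114 were Solyc01g021600 (r = 0.98), Solyc05g007640 (0.96), Solyc09g090080 (0.95), Solyc07g008280 (0.95) and Solyc03g025670 (0.95), of 12175 ranked. Over 15 pepper groups those most like CaERF114 were CA02g04610 (r = 0.95), CA08g02440 (0.93), CA06g11310 (0.93), CA08g18750 (0.92) and CA01g00810 (0.92), of 4505 ranked. Group means share libraries and depth, so r is a description. None of the 5 tomato genes stayed among the top 5 by Spearman correlation, or with the heterografted stock of 21 DAG kept, and 1 of the 5 pepper genes did by Spearman correlation. The groups ranked include those of heterograft against self-graft, so the calls that follow describe genes chosen for that pattern and are no test of it. No table used here describes these genes. Of the 5 in tomato, Solyc03g025670 was called higher in heterografted scions at 14 DAG (log2 fold change 2.42, adjusted p = 0.0133, edgeR) and Solyc09g090080 in heterografted stocks at 7 DAG (1.60, adjusted p = 0.0286). In heterografted stocks at 21 DAG Solyc01g021600 (3.10, adjusted p = 0.00168, edgeR) and Solyc07g008280 (2.07, adjusted p = 0.0226) were called higher and Solyc09g090080 lower, and Solyc05g007640 was called in none. Of the 5 in pepper, CA02g04610 was called higher in the same 4 contrasts as CaERF114, with a log2 fold change of 5.51 (adjusted p = 0.00329, edgeR) in scions at 21 DAG. CA08g02440 was called higher in 3 contrasts and the other 3 in 2 each. Of all pepper genes tested, 0.533% were called higher in at least 4 contrasts, 1.46% in at least 3 and 3.95% in at least 2.

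**Figure D4:**
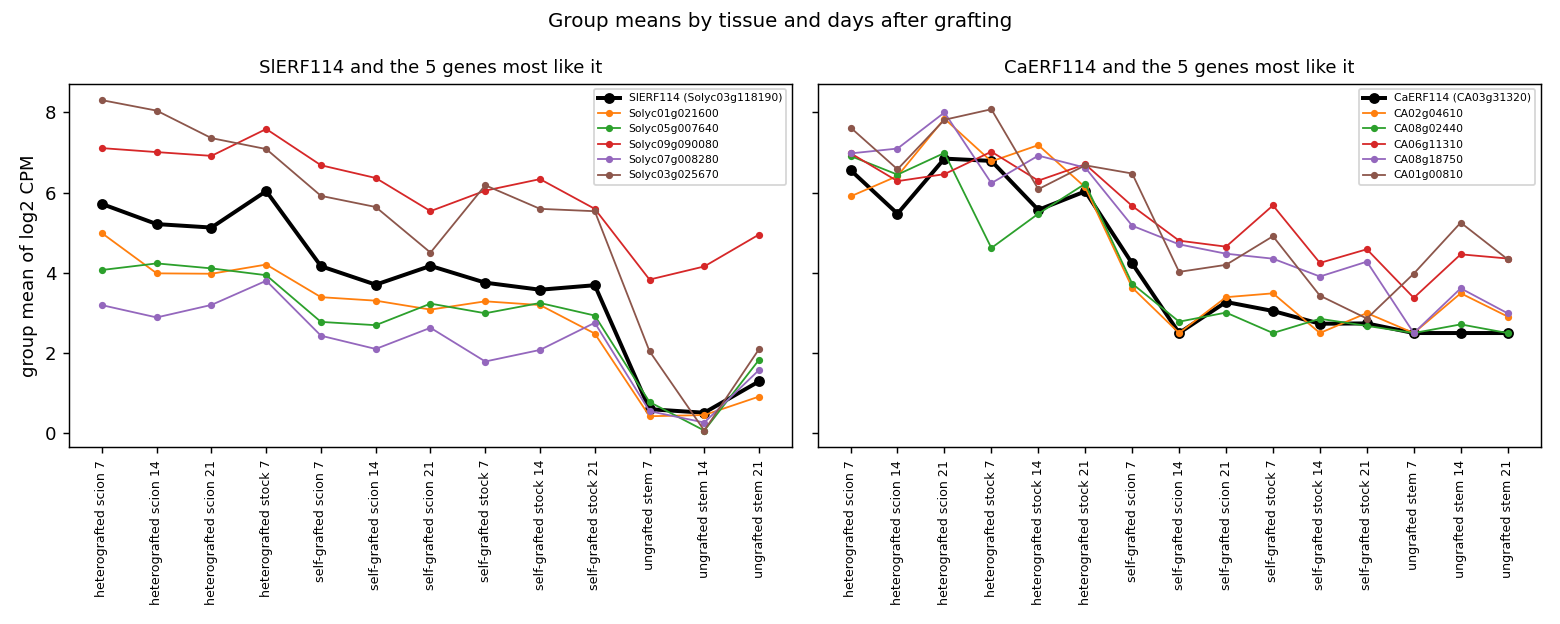
Group means of log2 CPM (prior count 2) of ERF114 (black) and of the 5 genes most like it in tomato and in pepper, by tissue and days after grafting. Lines only join the points of a gene. In pepper the lowest values sit near 2.49, the value that 0 counts take with the prior count.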

How the data were processed

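RNA of graft tissue and ungrafted stems was sequenced as 3' libraries. Raw counts per gene, with no normalization, were deposited by the authors, who cleaned reads with Prinseq and Trimmomatic, used STAR (2.7.10b in the submitters' processing notes) for alignment to tomato (ITAG4) and pepper (CM334) and took the counts from StringTie. Libraries were grouped by species, graft type, position and day, as labelled. The study calls the libraries of a group biological replicates. Genes averaging under 10 counts, or with 75% or more zeros, were left out, which kept 12176 tomato and 4506 pepper genes. Counts were fitted with edgeR 4.0.16 (R 4.3.3, TMM), 1 fit per species and day, without the tomato heterografted stocks of 14 DAG. Changes over days used 1 fit per species. The SE was derived as the size of the log2 fold change divided by the root of its F statistic. The fit was tested on simulated data for heterografted against self-grafted scions of 14 DAG, with 200 genes changed. These were drawn only from genes whose mean share of counts lay above the median, so recovery of genes with fewer counts was not tested. There edgeR recovered 92.5% in tomato and 69.0% in pepper, with 2 and 7 false calls. The median size of the log2 fold changes that edgeR estimated for the changed genes was 2.01 in tomato and 2.09 in pepper. Recovery was not tested for stocks, for other days or for ERF114 itself. Permutation tests were exact. DESeq2 1.42.0 and other settings were tried as alternatives. Named are the 2 members, their neighbours by identifier and the 5 most correlated genes per species. Members and lists were chosen with earlier results of these data known. Promoter and protein sequences were not used here.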

Additional observations from a re-analysis of the deposited data

Results flagged for a closer look

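3 values of ERF114, in 21 groups looked at, stood apart from the rest of their group by Dixon's rule. Each was the single library with counts in a group otherwise at 0, where the rule is met whatever the count, so its usual chance rate of about 1 in 20 groups has no bearing here. CaERF114 had 4.61 CPM (2 counts) in 1 self-grafted stock of 14 DAG and 6.24 CPM (3 counts) in 1 self-grafted stock of 21 DAG, while the other libraries of each group had 0. SlERF114 had 3.39 CPM (6 counts) in 1 ungrafted stem of 7 DAG, while the other 3 had 0. No difference between graft effects was flagged.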

How the results depend on the processing

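SlERF114, heterograft against self-graft, was called in the scion of 7 DAG with DESeq2's size factors (log2 fold change 1.61), the DESeq2 Wald test (1.61), all days in 1 fit (1.59), only the 2 groups compared (1.58) and by the exact permutation test of log2(CPM + 1) at p under 0.05, with no threshold on the fold (1.56). In the scion of 14 DAG it was called with size factors (1.53), DESeq2 (1.53), no filter (1.53), filterByExpr (1.52), only the 2 groups (1.52), the stocks of 14 DAG kept (1.53) and the exact permutation test (1.45). In the stock of 21 DAG it was called with library totals only (1.80) and reversed by the exact permutation test (-0.079). CaERF114 was called at 7 DAG by the exact permutation test in the scion (3.06), and in the stock with DESeq2 (5.05) and all days in 1 fit (4.75). Its call in the stock of 14 DAG was lost with the replicate block (5.23) and with only the 2 groups (4.75). Replicate numbers share no stated source. Over all pairs of groups of a day, the deviations of same-numbered libraries had a median correlation of 0.00899 in tomato and 0.00179 in pepper. Scion and stock of the same graft type were not looked at apart, so whether they are paired by plant was not tested. With the block the adjusted p of SlERF114, heterograft against self-graft, in the scion of 14 DAG was 0.0692 (edgeR). With the block CaERF114 was called in 3 of 6 heterograft against self-graft contrasts in place of 4, and SlERF114 in 1 of 5 either way. The block ended no other call by day, but it moved the tomato stock mean over days under the fold threshold (1.49), as did no filter (1.39) and filterByExpr (1.41).

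SlERF114, self-graft against ungrafted stem, lost its call at 7 DAG with only the 2 groups in the scion (3.98) and stock (3.74) and in the stock by the exact permutation test (3.23). At 21 DAG it was called in the scion with library totals only (3.25), DESeq2 (3.11), no libraries under 100000 counts (3.19), all days in 1 fit (3.19) and the exact permutation test (2.91), and in the stock with DESeq2 (2.67), all days in 1 fit (2.79) and the exact permutation test (2.43). The fall of SlERF114 in heterografted stocks was not called with library totals only (-0.71) or without libraries under 100000 counts (-1.16), which left 0 of 9 changes over days called. That of CaERF114 in self-grafted scions was not called with no filter (-5.60), which left 0 of 10. Of the 5 genes most like SlERF114, 0 were kept by Spearman correlation and 0 with the heterografted stock of 21 DAG kept. Of those most like CaERF114, 1 was kept by Spearman correlation.

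Without each replicate in turn, heterograft against self-graft ran from 1.48 to 1.68, 1.30 to 1.74 and 0.74 to 1.25 in tomato scions at 7, 14 and 21 DAG, and from 1.96 to 2.97 and -0.68 to 1.25 in tomato stocks at 7 and 21 DAG. The self-graft against ungrafted values ran from 3.49 to 8.00, 4.10 to 5.35 and 2.85 to 3.73 in scions, and from 2.91 to 7.71, 3.89 to 5.14 and 2.50 to 3.38 in stocks. The mean over days ran from 0.84 to 1.92 in tomato stocks. The fall in heterografted stocks ran from -2.97 to -1.16, and that of CaERF114 from -5.94 to -5.09. For SlERF114, between 0 and 1 scion against stock contrasts, 0 and 2 changes over days and 0 and 1 differences of graft effects were called, and for CaERF114 between 0 and 1 changes over days. CaERF114, heterograft against self-graft, kept each call and its absence whichever replicate was left out. The single scion against stock call came without the heterografted stock of 21 DAG with 18 counts, and a difference of graft effects was called without that library or without the self-grafted stock of 7 DAG with 42 counts. The self-graft against ungrafted scion value of 21 DAG was called in 3 of the fits that left out 1 library, and the tomato stock mean over days fell under a threshold in 5. Lists of ERF relatives and of jasmonate genes were not analysed here.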
